A study of Bos taurus with 12 samples.

Results

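The downstream flanks of gene features in bull sperm DNA are described here: stretches that begin at the 3′ side of an annotated exon, coding sequence, intron or untranslated region (UTR) and reach out to 10 kb. The members are tiles of 500 bp from the authors' deposited comparison of 6 low BFI samples with 6 high BFI samples of Bos taurus sperm. They were taken by position alone: autosomal tiles classed as downstream whose closest feature is not a CpG island. Dense intervals on chromosomes 1 (below 0.7 Mb), 6 (5 to 6 Mb), 14 (13 to 14 Mb), 18 (57 to 57.5 Mb) and 21 (32.5 to 33.5 Mb) were left out. This gave 430 of the 7290 listed tiles, on 23 of 26 listed autosomes. Of the 680 tiles classed as downstream of a gene feature, 103 lay on chromosome X and 147 in the dense intervals.

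Both groups are sperm of males, profiled by enzymatic methylation sequencing (EM-seq), which converts unmethylated cytosines with enzymes in place of bisulfite. The labels give no age, breed, genotype or treatment, do not spell out BFI, and do not say whether every sample is a different bull. For each tile the table lists a methylation difference, read as percentage points, with its p-value and q-value, and no value for any single sample. The sign is given as deposited, because its direction between low BFI and high BFI is not stated in the sources used here. Tile depth is unknown, and no spread between samples could be set beside a difference. The q-values are the authors' own, and counts at a threshold are counts of those.

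DNA methylation is the addition of a methyl group to cytosine, in mammals mostly where a guanine follows. Sperm DNA is highly methylated over most of the genome, while CpG islands, which often span promoters and first exons, are usually unmethylated. A gene's 3′ flank lies past its polyadenylation site and carries no promoter of that gene, whereas the flank of a 5′ UTR or of an inner exon can lie inside the gene. The downstream class mixes these cases, because it is defined by the closest feature and not by the end of the gene.

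Over all feature types, flank tiles beyond 1 kb had larger differences between the groups than those under 1 kb, and more of them were negative. Not every feature type followed this, as given below. The group under 1 kb includes tiles that share bases with their closest feature. The 179 tiles under 1 kb had a median size of difference of 0.718 percentage points, the 173 tiles from 1 to 5 kb 1.91 points, and the 78 tiles from 5 to 10 kb 1.14 points. Negative differences made up 55.9% of tiles under 1 kb, 73.4% from 1 to 5 kb and 71.8% from 5 to 10 kb. Over all 430 tiles the median size was 1.201 points and 65.8% were negative, beside 1.02 points and 65.6% over all 4810 autosomal tiles outside the dense intervals. These distance groups come from the same samples and hold overlapping tiles, and no test was made between them.

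A tile was counted at a deposited q under 0.05, and also with a difference of at least 5 or at least 10 points in either direction. At q under 0.05, 285 of the 430 flank tiles were counted (66.3%), near the background of 67.4% of the 4810 tiles and 71.8% of all listed tiles. Of these, 204 were negative and 81 positive, beside backgrounds of 48.1% and 19.3% of the 4810 tiles, and 55.9% and 15.9% of all listed tiles. With at least 5 points 65 were counted (15.1%), beside a background of 9.65% of the 4810 tiles and 15.4% of all listed tiles. Of these, 52 were negative and 13 positive, where the backgrounds were 8.46% and 1.19% of the 4810 tiles, and 14.3% and 1.12% of all listed tiles. With at least 10 points 7 tiles were counted, all negative, beside 0.915% of the 4810 tiles (0.894% negative) and 2.78% of all listed tiles (2.63% negative). These 7 tiles belong to only 2 genes, OR4C185 and GLYAT, both of multicopy families.

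The share counted was highest in the middle distance group. At q under 0.05 it was 113 of 179 tiles under 1 kb (63.1%), 129 of 173 from 1 to 5 kb (74.6%) and 43 of 78 from 5 to 10 kb (55.1%). With at least 5 points the counts were 18, 39 and 8 tiles (10.1%, 22.5% and 10.3%). A single transcript on chromosome 9, ENSBTAT00000077535, supplied 32 of the 78 tiles of the farthest group, and without it the median size was 0.634, 2.11 and 2.46 points from the nearest to the farthest group. With chromosome X included the medians were 0.858, 1.61 and 2.73 points, so only the low value under 1 kb, and not a peak from 1 to 5 kb, held under both settings. Many calls were small: 66 of the 285 counted tiles differed by less than 1 point, down to 0.0624 points, and 25 tiles had a q under 0.05 beside a p of 0.05 or more.

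**Figure D1:**
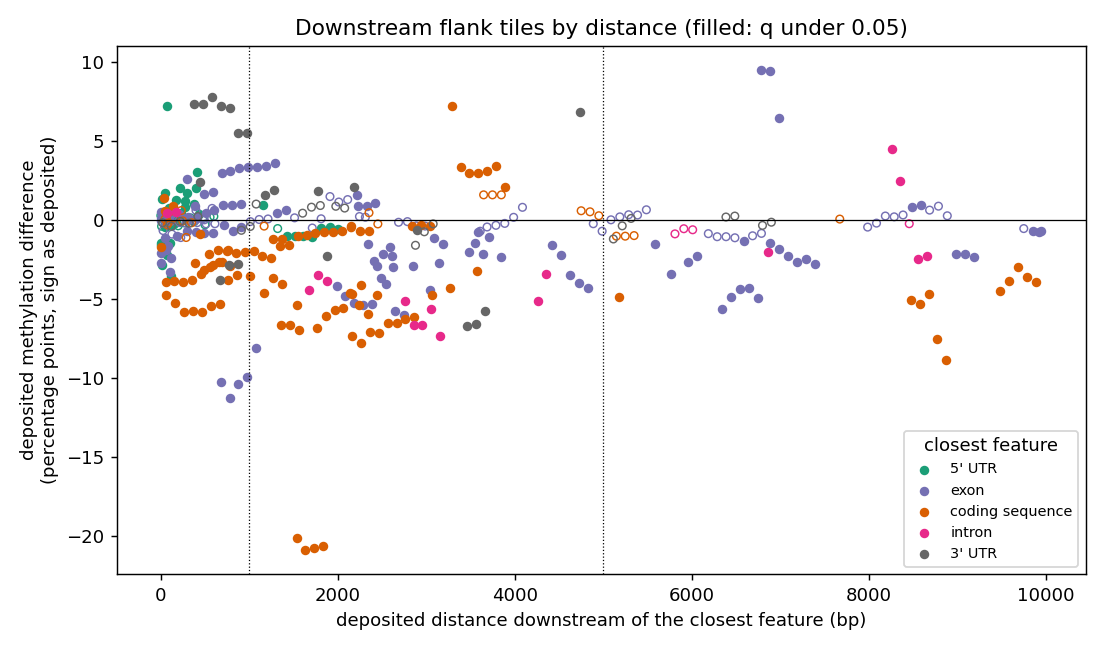
Deposited methylation difference in percentage points (vertical) against deposited distance in bp (horizontal) for the 430 flank tiles. Filled points have a q under 0.05, colours give the closest feature, and dotted lines mark 1000 and 5000 bp. The 4 lowest points, near -20 points, belong to OR4C185, and most tiles under 1000 bp stay close to 0.

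Larger medians past 1 kb were also present in comparable position classes. In the promoter class, tiles upstream of gene features at the same distances, the median sizes were 0.541 points (262 tiles), 2.27 points (112 tiles) and 1.48 points (48 tiles). Downstream of CpG islands they were 0.527 points (638 tiles), 1.76 points (254 tiles) and 2.90 points (146 tiles). Under 1 kb, at least 5 points at q under 0.05 was reached by 10.1% of gene-flank tiles, 1.15% of promoter tiles and 1.41% of tiles downstream of CpG islands. Of the 18 flank tiles behind that first share, 12 belong to multicopy families, namely a T cell receptor gene, GLYAT and a GLYAT-like gene, and the other 6 to ENSBTAG00000048516 on chromosome 21.

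**Figure D2:**
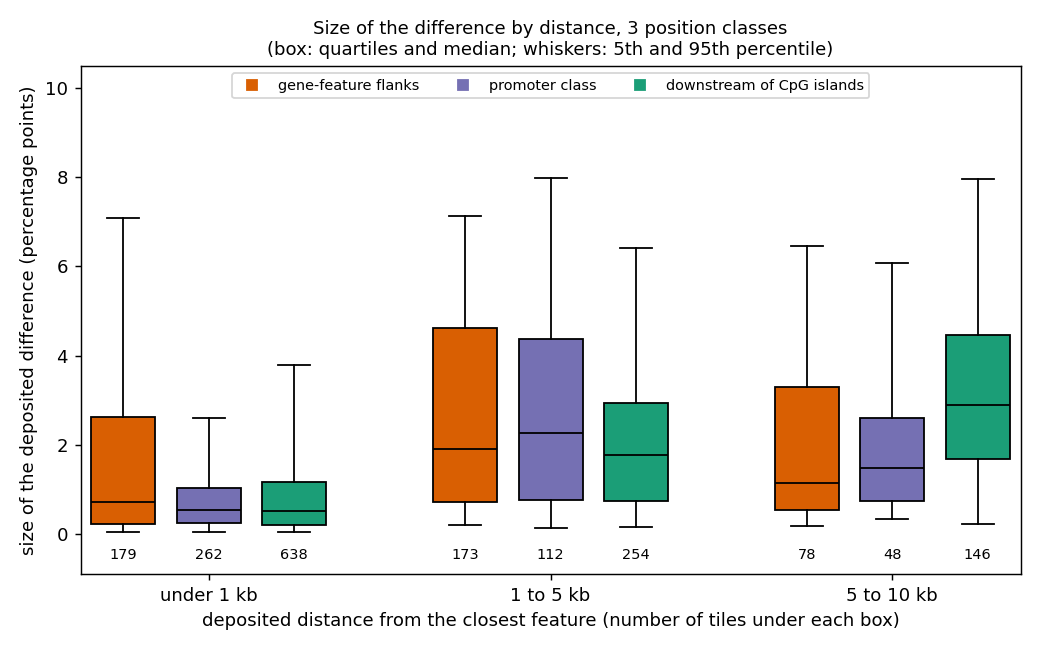
Size of the deposited difference in percentage points by distance group, for gene-feature flanks, the promoter class and tiles downstream of CpG islands. Boxes give quartiles and median, whiskers the 5th and 95th percentiles, and the number of tiles stands under each box; in all 3 classes the median is lowest under 1 kb.

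Flanks differed by the kind of feature they follow. The 124 tiles beyond coding sequence, of 25 IDs, had the most negative median, -2.78 points, with 103 negative tiles. At q under 0.05, 102 of them were counted (82.3%, beside 67.4% of the 4810 tiles). ENSBTAG00000051364 held 24 of the 124 tiles, ENSBTAG00000048516 19 and ENSBTAG00000023249 10. The 21 tiles beyond introns, of only 4 IDs, had a median of -2.44 points, 17 of them negative. ENSBTAG00000009197 alone held 13 of these 21 tiles, 11 of them negative. The 175 tiles beyond exons stood at -0.403 points. Tiles beyond 5′ UTRs (66) and beyond 3′ UTRs (44) had medians of 0.0774 and 0.166 points, so their signs were about evenly split, with 32 and 21 negative tiles. In size, the 5′ UTR flanks were the smallest, with a median of 0.436 points and 71.2% of tiles under 1 point, against 3.06 points and 31 of 124 tiles for coding sequence.

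Distance and feature type were not independent. Tiles beyond 5′ UTRs made up 57 of the 179 tiles under 1 kb and none past 5 kb. Without the 5′ UTR tiles, the median size was 1.02 points under 1 kb and 2.12 points from 1 to 5 kb. Within coding sequence flanks alone it was 2.62 points under 1 kb (40 tiles), 3.40 points from 1 to 5 kb (69 tiles) and 3.87 points past 5 kb (15 tiles). Within exon flanks the values were 0.646, 1.504 and 1.03 points for 63, 65 and 47 tiles. Within 3′ UTR flanks the order was reversed, with 2.84, 1.30 and 0.270 points for 17, 20 and 7 tiles. The share of negative tiles, under 1 kb and then from 1 to 5 kb, did not rise in every type. It was 85.0% then 79.7% in coding sequence flanks and 47.1% then 45.0% in 3′ UTR flanks. In the other types it rose, as from 54.0% to 69.2% in exon flanks. Without the 5′ UTR tiles it was 62.3% then 72.6%.

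**Figure D3:**
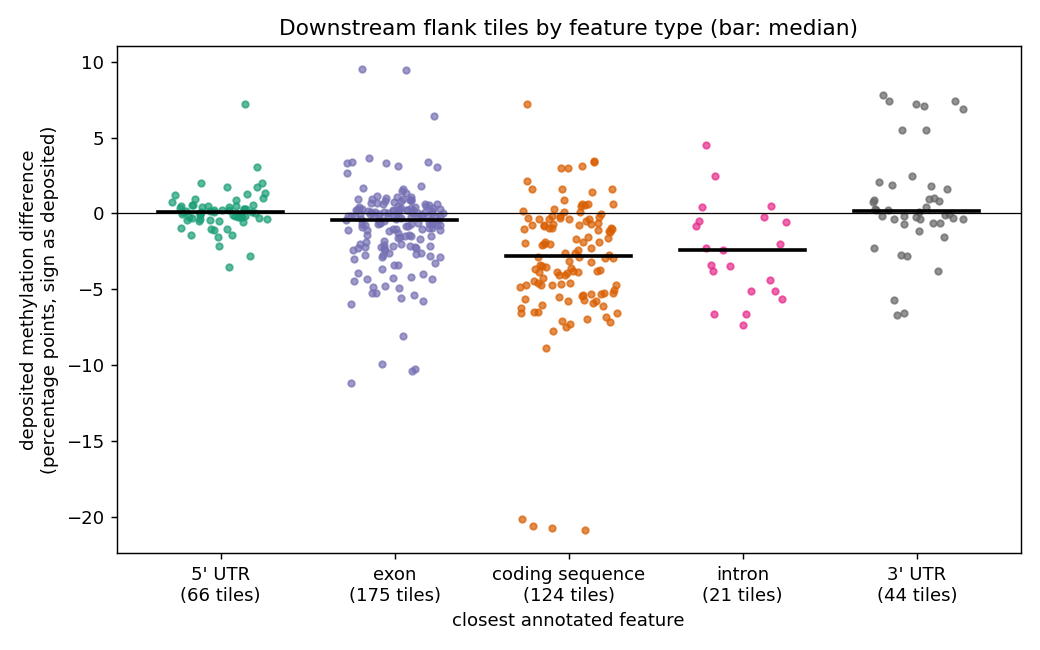
Deposited methylation difference in percentage points for each flank tile, grouped by the closest annotated feature, with a bar at the median. Coding sequence (124 tiles, median -2.78 points) and intron flanks (21 tiles) lie mostly below 0, while 5′ UTR flanks (66 tiles) cluster around 0 with 1 tile above 5 points.

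The flanks belong to 110 IDs, 89 of genes and 21 of transcripts without a gene ID. Symbols other than LOC numbers were found for 62 IDs, which held only 121 of the 430 tiles. Flanks of these named genes had a median size of 0.513 points, and the 309 tiles of LOC entries and unnamed IDs 1.91 points. Named genes held 13 of the 65 tiles with at least 5 points and all 7 with at least 10. A tile at q under 0.05 was present for 72 of 110 IDs, beside 415 of 571 IDs over all gene-feature tiles. For 55 of the 110 IDs the largest difference was under 1 point.

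Tiles overlap, so neighbouring values share cytosines. Joined where tiles lie within 1000 bp of each other, the flanks form 117 loci, 50 of 1 tile and 67 of at least 2. In 54 of these 67 loci all tiles had the same sign, negative in 35 and positive in 19. Taking pairs of tiles of one ID whose starts lie 500 to 900 bp apart, which share no base, 341 of 492 had the same sign (69.3%). Pairs are pooled over IDs, so those with many tiles, such as ENSBTAT00000077535 with 68, weigh most. With 65.8% of flank tiles negative, some agreement comes from that imbalance alone, and its share was not computed. With the tile of smallest q standing for each locus, 76 of 117 loci had a q under 0.05, 47 negative and 29 positive.

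Among coding sequence flanks, OR4C185 on chromosome 15 stood apart in size. It is described in the table as olfactory receptor 4C6-like, a receptor of the odorant family, and is reported as uncertain because such genes exist in many similar copies. At 1534, 1634, 1734 and 1834 bp downstream of its coding sequence (1094435 to 1095322, minus strand) the authors' deposited table gives -20.1, -20.9, -20.7 and -20.6 percentage points. All 4 overlapping tiles span 1092601 to 1093400, and the smallest q was 3.00e-46. The next most negative flank, that of GLYAT, reached -11.2 points.

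An unnamed coding gene on chromosome 21, ENSBTAG00000048516, had the most tiles of any flank with a single sign. All 19 of its tiles were negative and counted at q under 0.05. Their deposited distances run from 63 to 2263 bp downstream of coding sequence at 19630064 to 19632205 (minus strand). Those at 63 to 463 bp share bases with that coding sequence. Under 1 kb the 9 tiles lay between -5.79 and -3.44 points in the authors' deposited table. From 1 to 5 kb the 10 tiles ran between -6.93 (19628501 to 19629000, q = 1.99e-40) and -4.08 points. Its 3 listed tiles within gene features had a median of -4.17 points.

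Near the start of chromosome 25, ENSBTAG00000023249 had 10 negative tiles between 2164 and 3264 bp downstream of coding sequence. The values in the authors' deposited table ran from -7.78 points (20701 to 21200, q = 1.18e-17) to -4.26 points. Upstream of the same gene the sign was mostly the other way: its 27 promoter-class tiles had a median of 2.43 points and ranged from -1.22 to 8.21 points. ENSBTAG00000051364 on chromosome 2 also had opposite signs. Its 24 flank tiles had a median of -0.899 points, lowest at -2.39 points (121568601 to 121569100, q = 5.45e-60 in the authors' deposited table), while 36 tiles within its features had a median of 1.44 points. At deposited distances up to 347 bp its 4 tiles were uncounted, between -0.154 and 0.144 points, and share bases with the coding sequence at 121569848 to 121570321. All 20 tiles farther out were negative and counted. The nearest of these, at 447 bp, also shares bases with the coding sequence.

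Both listed copies of a gene described as ubiquitin carboxyl-terminal hydrolase 17-like protein 6, a family of deubiquitinating enzymes, had negative flanks. They are reported as uncertain, since reads can align to more than one copy. LOC112446467 on chromosome 4 had 8 tiles between 54 and 754 bp beyond its coding sequence, with -3.92 points at the extreme (119844601 to 119845100) and -1.89 points in the farthest tile. It also held the smallest q of a negative flank tile in the authors' deposited table, 1.92e-129 at 119844401 to 119844900. Its 12 tiles within gene features had a median of -3.36 points. LOC790134 on chromosome 3, picked out after its values were seen, had 6 tiles, from -3.13 to -1.08 points in the authors' deposited table, of which 5 had a q under 0.05, and its 8 tiles within features had a median of -3.24 points.

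On chromosome 24, neighbouring flanks differed in sign. The flank of LOC100337223, described as serpin B4 of the serine protease inhibitor family, was positive in all 7 tiles, between 3287 and 3887 bp, with 7.21 points in the nearest tile (61876501 to 61877000, q = 1.24e-20) and 2.11 in the farthest, as listed in the authors' deposited table. ENSBTAG00000048835, with tiles at 61858001 to 61861100 beyond an exon, had 3 tiles of 0.883 to 1.09 points at 2225 to 2425 bp and 5 tiles of -4.26 to -1.53 points at 4425 to 4825 bp. All 8 were counted at q under 0.05 in the authors' deposited table, and this ID was picked out after its values were seen. ZNF432, a zinc finger gene on chromosome 18, had 3 coding sequence flank tiles from 4749 to 4949 bp, with at most 0.606 points and none counted.

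Chromosome 29 held 4 unnamed genes with flank tiles between 5543301 and 5780400. ENSBTAG00000009197 had 13 tiles beyond an intron edge at 5690845, and its sign changed along the flank. Between 2756 and 6856 bp the authors' deposited table gives -5.11, -6.63, -6.63, -5.61, -7.35, -5.08, -3.37 and -1.99 points. At 8256 and 8356 bp it gives 4.49 and 2.48 points, then -0.213, -2.44 and -2.27 points out to 8656 bp. ENSBTAG00000054977 had 5 negative tiles from 8474 to 8874 bp beyond coding sequence, down to -8.86 points (5644401 to 5644900, q = 2.09e-14 in the authors' deposited table).

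**Figure D4:**
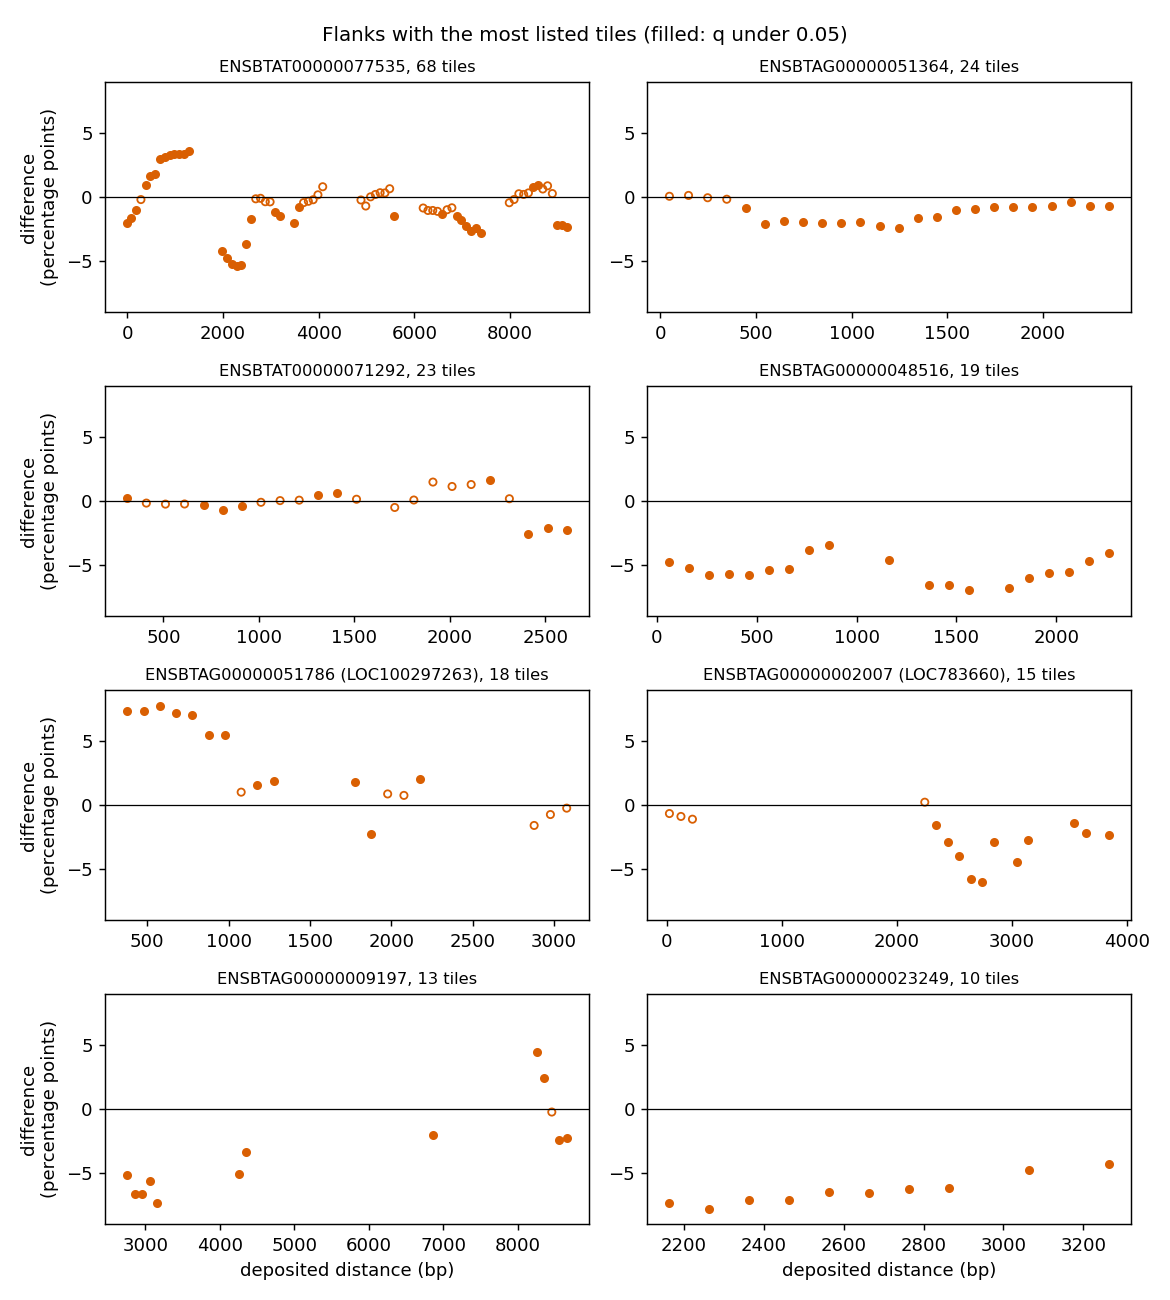
Deposited methylation difference in percentage points against deposited distance in bp for the 8 flanks with the most tiles, on a shared vertical scale from -9 to 9. Filled points have a q under 0.05; ENSBTAG00000048516 and ENSBTAG00000023249 stay negative throughout, while ENSBTAT00000077535 and ENSBTAG00000009197 change sign along the flank.

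Exon flanks were dominated by transcripts without a gene ID, which held 137 of the 175 exon tiles. ENSBTAT00000077535 on chromosome 9 had 68 tiles between 34901 and 44700, classed as downstream of an exon at 44087 to 44201 on the minus strand. Its sign alternated along the flank. At 0 and 86 bp the authors' deposited table gives -2.05 and -1.64 points, in tiles that share bases with the exon. The first, at 44201 to 44700, extends to the exon's upstream side. Between 386 and 1286 bp all 10 tiles were positive, up to 3.64 points. From 1986 to 3886 bp all 18 tiles were negative, 11 of them counted, as low as -5.35 points (41801 to 42300, q = 3.47e-28 in the authors' deposited table). Past 5 kb 13 of 32 tiles were counted, 11 of them negative, none beyond -2.79 points.

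ENSBTAT00000071292 on chromosome 3 had 23 exon flank tiles, 10 of them counted and 11 negative. Its lowest tile, 2411 bp out at 21308401 to 21308900, had -2.58 points (q = 0.00333 in the authors' deposited table). ENSBTAT00000077347 on chromosome 2 shows how small a counted difference could be. Its 10 tiles ran from -0.0624 points at 105 bp, in a tile that shares bases with the exon, to 1.05 points at 905 bp (121574201 to 121574700). The q there, 1.74e-54, was the smallest of a positive flank tile in the authors' deposited table. Farther from its exon, 6783 to 6983 bp out, ENSBTAT00000084488 on chromosome 7 had 9.51, 9.48 and 6.45 points in the authors' deposited table. The first, at 109320601 to 109321100 (q = 1.58e-10), is the highest value of all 430 flank tiles. ENSBTAT00000084356 near the start of chromosome 8 had 5 negative tiles between 6346 and 6746 bp, from -5.59 (139701 to 140200) to -4.29 points in the authors' deposited table. ENSBTAT00000078920 on chromosome 19 had 2.63 points 297 bp out (q = 0.0289 in the authors' deposited table).

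GLYAT encodes an enzyme that joins glycine to acyl-CoA compounds. It had exon flank tiles on chromosome 15 with -10.2, -11.2, -10.4, -9.91 and -8.09 points from 677 to 1077 bp in the authors' deposited table. The tile of -11.2 points lies at 82126901 to 82127400 (q = 2.85e-22), 278 bp by the nearest edges from an exon at 82127678 to 82128145. Near the gene's other end, 3 tiles 1320 to 1520 bp beyond its 5′ UTR had only -0.519, -1.02 and -1.02 points, far closer to 0 than those at the exon. Its 4 tiles within gene features had a median of -3.97 points. A neighbouring glycine-N-acyltransferase-like gene, ENSBTAG00000052095, had a single tile of 7.21 points (82108201 to 82108700, q = 1.05e-09 in the authors' deposited table). That tile covers the whole 5′ UTR at 82108274 to 82108601 and is not DNA beyond it alone. Within its features 3 tiles had a median of 6.73 points. Its 5 promoter-class tiles had the other sign, with a median of -1.16 points between -1.95 and -0.738, 4 of them counted. Both are of a multicopy family and reported as uncertain.

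The gene listed as proteoglycan 3, LOC783660, encodes in humans a protein of eosinophil granules. It was picked out after its values were seen, for its 15 tiles. Its 3 tiles at 80616801 to 80617500 on chromosome 15 had -1.09 to -0.646 points and were not counted. They share bases with an exon at 80616545 to 80617158, and their distances, up to 225 bp, are measured from another exon start. From 2244 to 3844 bp downstream of the exon at 80616545, 11 of 12 tiles were counted and negative. The lowest had -5.98 points (80613801 to 80614300, q = 5.10e-06 in the authors' deposited table). LOC781990, a proteoglycan 3-like gene on the same chromosome, had 3 negative counted tiles, from -3.42 (80591301 to 80591800, q = 9.83e-05 in the authors' deposited table) to -2.28 points at 5760 to 6060 bp. EN1, a homeobox factor of brain and limb patterning, had 1 exon tile at 0.305 points (q = 0.102 in the authors' deposited table).

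Beyond 3′ UTRs, 21 of 44 tiles were counted (47.7%, beside 67.4% of the 4810 tiles), 13 positive and 8 negative. These flanks most clearly follow the end of a transcript, except where a 3′ UTR is in pieces, as for FBXO16 below. A single multicopy gene, LOC100297263, supplied 12 of the 21 counted tiles and 11 of the 13 positive ones, and of the 26 tiles of other IDs 2 were counted and positive and 7 counted and negative. LOC100297263, described as T cell receptor beta variable 5-1, had 7 positive tiles from 377 to 977 bp with 7.37, 7.37, 7.79, 7.22, 7.08, 5.53 and 5.53 points in the authors' deposited table. Its largest lies on chromosome 4 at 105604501 to 105605000 (q = 1.41e-08). From 1077 to 3077 bp its 11 tiles lay between -2.27 and 2.08 points. Variable segments of receptor genes are multicopy and reported as uncertain.

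DDT, D-dopachrome tautomerase, a relative of macrophage migration inhibitory factor, had 3 negative tiles 3461 to 3661 bp beyond its 3′ UTR on chromosome 17. The authors' deposited table gives -6.67 (71341201 to 71341700, q = 3.34e-15), -6.54 and -5.72 points. FBXO16, an F-box gene, had 3 counted tiles of -3.79 (10292001 to 10292500, q = 2.93e-06 in the authors' deposited table), -2.84 and -2.76 points at 669 to 869 bp from one 3′ UTR piece. The other 5 FBXO16 tiles, 19 to 419 bp past its other 3′ UTR piece farther along the plus strand, stayed between -0.377 and 0.243 points. The 3 counted tiles therefore lie between those pieces and not past the last of them. ENSBTAG00000046161 on chromosome 21 had a single tile of 6.86 points, 4732 bp out (343701 to 344200, q = 2.05e-06 in the authors' deposited table). BCL3, ATF5, ITGB3, IL5RA and MIGA2 had 12 tiles at 3′ UTRs between -1.18 and 0.937 points, none counted, and were picked out after their values were seen.

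Flanks of 5′ UTRs, which lie at the start of transcripts, were mostly small. Under 1 point were 71.2% of their 66 tiles, beside 49.6% of the 4810 tiles. Of 42 IDs with such tiles, 25 had a tile at q under 0.05 (59.5%), beside 72.7% of the 571 IDs over all gene-feature tiles. Only the GLYAT-like gene passed 5 points, with 1 tile (1.52%, beside 9.65% of the 4810 tiles). ASNS, the asparagine synthetase gene, had -2.80 and -3.51 points at its 5′ UTR (chromosome 4, 15150101 to 15150600, q = 5.48e-07 for the larger in the authors' deposited table). Its single tile within gene features had -3.62 points. REPIN1, a zinc finger protein gene on chromosome 4, had 3.03 points 410 bp out (112784001 to 112784500, q = 0.000126 in the authors' deposited table). RBM47, which encodes an RNA-binding protein, had 0.976 points (q = 5.85e-06 in the authors' deposited table). DROSHA, the nuclease that processes microRNA precursors, had 2.02 points (q = 5.56e-07 in the authors' deposited table). It was picked out after its value was seen.

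**Figure D5:**
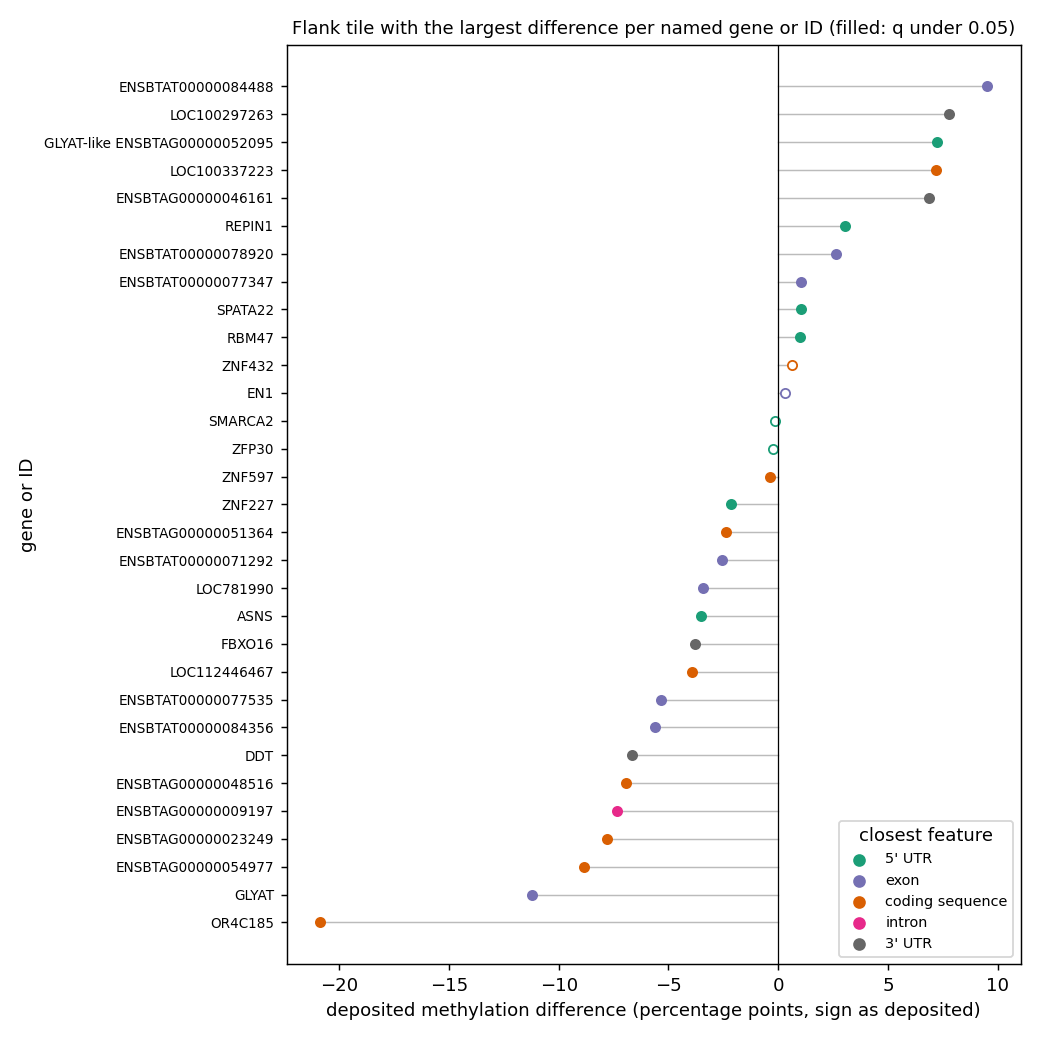
Flank tile with the largest deposited difference, in percentage points, for each of 31 genes or IDs, ordered by value; filled points (27) have a q under 0.05 and colours give the closest feature. Values run from -20.9 points for OR4C185 to 9.51 points for ENSBTAT00000084488, and the genes of sperm, imprinted, developmental and chromatin lists lie near 0.

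Genes of the sperm, imprinted, developmental and chromatin lists had 1 member each among the flanks. SPATA22, needed for meiotic recombination, had 4 tiles at its 5′ UTR on chromosome 19 of 0.513, 0.506, 0.855 and 1.03 points, and the last, at 24212201 to 24212700, had a q of 0.000509 in the authors' deposited table. ZNF597, imprinted in humans, had 3 coding sequence flank tiles of -0.366, -0.278 and -0.378 points, all with a q under 0.05. SMARCA2, the ATPase of a chromatin remodelling complex, had -0.127 points (q = 0.255 in the authors' deposited table). The zinc finger list, drawn up by name prefix, had 4 members, 2 counted and both negative, beside 72 of 110 flank IDs counted (65.5%): ZNF597, and ZNF227 with -2.17 points (q = 0.00256 in the authors' deposited table). ZFP30 with -0.229 points was not counted (q = 0.232 in the authors' deposited table). REPIN1, whose name has none of the prefixes, was counted and positive, and with it 3 of 5 were counted. Across these lists the median largest difference per gene was at most 1.03 points, beside 1.002 over all 110 IDs. The multicopy list had 4 of 4 members counted, 2 negative and 2 positive, with a median largest difference of 9.50 points. It was drawn up with earlier results known and holds OR4C185 and GLYAT, the only genes past 10 points. The list does not hold the USP17-like copies described above, LOC112446467 and LOC790134, whose largest differences were -3.92 and -3.13 points. With them 6 of 6 were counted, 4 negative, and the median would be lower. Calcium and cAMP, synapse, leukocyte, and epithelial and accessory gland lists had 0 members.

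Tiles within gene features were listed for 35 of the IDs with a flank tile. In 28 of these the median flank and the median gene-body difference had the same sign, negative in 21 and positive in 7. The median size was 0.434 points for the flanks and 0.421 points within features. Of 26 IDs with promoter-class tiles, 17 had the same sign on both sides. These values come from the same samples and sometimes from overlapping tiles, and are given as a description.

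Position on the chromosome moved with the size of the difference. In the first 0.5 Mb of a chromosome, 93 flank tiles of 9 IDs had a median size of 1.81 points, beside 1.05 points for the 337 elsewhere. Of these 93 tiles, 68 belong to ENSBTAT00000077535 and 10 to ENSBTAG00000023249, so the flank median near chromosome starts rests largely on these IDs. Other autosomal tiles showed a wider gap, 2.24 points for 1187 tiles in the first 0.5 Mb and 0.712 points for 3193 elsewhere. CpG islands named anywhere in the table lay within 2000 bp of 96 flank tiles, which had a median size of 0.768 points and 3 tiles of at least 5 points at q under 0.05. The other 334 tiles had 1.45 points and 62 such tiles. The part of chromosome position and of nearby islands in the pattern by distance was not tested. At the outer edge, the 11 flank tiles at 9000 bp or more, of 4 IDs, had a median of -2.30 points. Of these, 10 were counted at q under 0.05 and 0 of them at 5 points or more. The 18 tiles on the same side classed as intergenic up to 11000 bp, of 6 IDs, had a median of -0.871 points. All 18 were counted, 6 of them at 5 points or more. The backgrounds over the 4810 tiles were 67.4% and 9.65%. With so few IDs on each side, no contrast across 10 kb is drawn.

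The deposited distance is not measured alike on both strands. On the plus strand it runs from the feature's end to the tile's nearest edge, and on the minus strand from the feature's start to the tile's far edge, which adds 499 bp. So 87 of the 268 minus-strand flank tiles share bases with their feature, against 1 of 162 on the plus strand. The 88 tiles sharing bases had a median size of 0.383 points and the 342 others 1.82 points. All 88 fall in the group under 1 kb, which holds 179 tiles. The median of that group without them was not computed, and the gap between nearest edges leaves them in it. Measured by the gap between nearest edges, 22 tiles changed distance group.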

How the data were processed

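EM-seq of bull sperm DNA gave 1 table for 12 samples, 6 per group. Per the submitters' processing notes, the tools were Trimmomatic, Bismark and methylKit, on builds ARS-UCD1.2 and bosTau9. Their versions and settings are not given in the sources used here. The deposited table lists tiles of 500 bp on a 100 bp grid. The authors' methylation difference is a score, read as percentage points, and beside it stand the authors' p-value and q-value, per the file headers. In 5007 of 7290 tiles the deposited q-value lies below the p-value. No column belongs to 1 sample (0 unmatched), so no test between groups, permutation or interval was possible, and depth is unknown.

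Tiles were counted at q under 0.05, alone or with at least 5 or 10 points. Distances are as deposited. Reversed intron edges (21 tiles) were swapped. Medians and shares cover overlapping tiles. For 68 IDs a symbol or LOC name was found, 48 by hand from the description and the rest by NCBI number in a RefSeq gene table of ARS-UCD2.0, used for names only; all 68 lie on the same chromosome there. Positions are those of the deposited table. No sequence is printed, as no genome of that build was used here.

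The members and gene lists were chosen with earlier results of these data known. Named are, per distance group and sign, the 5 genes with the largest counted difference (at most 2 without a name), genes past 10 points, the 3 with most tiles, the smallest q of each sign and list members. Genes outside this rule are said to have been picked out after their values were seen. The counting was tested on simulated data. Alternatives were the edge gap, 1 tile per locus, chromosome X or dense intervals included, fewer IDs or types, and other thresholds. Python 3.11.15, NumPy 2.4.6, pandas 2.3.3, SciPy 1.17.1 and matplotlib 3.10.9 were used.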

Additional observations from a re-analysis of the deposited data

How the results depend on the processing

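No paired analysis was possible because the groups share no replicate number and the table holds no value per sample. Of 160 values recomputed under the alternatives, 134 stayed within 1.5 times or within their counting interval, and no named tile changed sign, since alternatives leave a tile's own difference as deposited. Named tiles of 6 IDs no longer passed at q under 0.001. The median under 1 kb was the lowest of the 3 distance groups under every setting that was run. The 5 to 10 kb median was 2.73 points with chromosome X, above that from 1 to 5 kb, as it was without the ID with most tiles (2.46), and 2.28 with gene IDs only (82.4% negative).

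With 1 tile per locus, the one of smallest q, the median sizes from 1 to 5 kb and 5 to 10 kb were 3.18 and 2.30 points, and counts at q under 0.05 from the nearest to the farthest group 44, 23 and 9 (at least 5 points: 4, 9 and 3; at least 10 points: 2). Fewer tiles enter these counts, and choosing by q can favour large differences, so the medians are not those of all tiles. With the dense intervals put back 194 tiles from 1 to 5 kb had a q under 0.05, and 15 from 5 to 10 kb also had at least 5 points. In that farthest group chromosome X gave 83 and 32, gene IDs only 19 and 4 (5 IDs with a counted tile), and q under 0.001 gave 23. Of settings chosen after seeing the data, leaving out the 4 members of the multicopy list gave 6 tiles of at least 5 points under 1 kb and 0 of at least 10, and leaving out 5′ UTR tiles gave 22 IDs with a counted tile under 1 kb. A minimum of 5 points gave 65 tiles and of 2 points 172.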
